A study of Rattus norvegicus with 6 samples.

Results

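The nicotinic acetylcholine receptor of skeletal muscle and the proteins that cluster it at the nerve contact were followed in cultured vascular smooth muscle (VSM) cells. The members, the receptor subunits Chrng, Chrna1, Chrnb1 and Chrnd and the clustering proteins Rapsn and Musk, were chosen by gene symbol with their young and old counts in these same libraries already known. Their values by age are therefore given as a description, and the counts of calls among them stand as background from which nothing is read. Of these 6 genes, 4 (Chrng, Chrnb1, Rapsn and Musk) had a row among the 14475 genes of the count table. Chrna1 and Chrnd had no row under their symbols and were not analysed here. The table keeps genes that reach 10 counts in 3 or more libraries, and 1518 of its rows carry no symbol, so that a gene without a row is not shown to be without RNA.

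VSM cells were grown from soleus feed arteries (SFA), the vessels that carry blood to the soleus muscle, of male Fischer (F344) rats aged 4 months (young, 3 libraries) or 24 months (old, 3 libraries). The study describes each group as 3 rats, while the labels tie no library to an animal. No agent or genetic change is named for either group, and both were cultured in medium with serum. Total RNA was extracted and polyadenylated RNA was sequenced. Libraries held 44235674 to 59700887 counts, of which 68.7% to 71.1% of the values from 1 to 19 were even. Each library total was also above the highest number of reads per sample that the paper states. Counting both mates of a pair would give such an excess of even values, which was not tested. A low value would then carry more sampling error than its size shows. Values are given as counts and as CPM, counts scaled to library size with TMM factors, and fold changes as log2 of old over young from edgeR. Transcript lengths were not used, so levels are compared between libraries and not between genes.

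The muscle receptor is a channel of subunits around a pore that opens when the motor nerve releases acetylcholine. The embryonic form holds α1, β1, δ and γ subunits, encoded by Chrna1, Chrnb1, Chrnd and Chrng, and in innervated adult muscle the ε subunit, encoded by Chrne, takes the place of γ. Nerve agrin binds LRP4, which activates the kinase MuSK, and rapsyn then gathers the receptors under the nerve ending. In skeletal muscle these genes are driven by myogenic bHLH factors such as MyoD and myogenin, which bind DNA at E-boxes.

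The upstream sequences of 3 embryonic subunit genes are shown because 1 of them, Chrng, had 5395 or more counts in each library while the other 2 had no row. They are RefSeq sequences on the assembly GRCr8, 250 bases up to the base before the annotated start, and are read in the direction of the gene. Capitals mark E-boxes (CANNTG) and, in Chrnd, also the N-box (CCGGAA, read here on the opposite strand), a motif of Ets factors at synaptic genes.
Chrng, chr9:95325734-95325983, plus strand: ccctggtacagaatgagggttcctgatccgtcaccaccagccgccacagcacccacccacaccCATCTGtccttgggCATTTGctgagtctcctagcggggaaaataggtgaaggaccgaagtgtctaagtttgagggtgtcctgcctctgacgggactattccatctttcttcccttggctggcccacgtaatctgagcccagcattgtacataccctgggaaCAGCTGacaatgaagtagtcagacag
Chrna1, chr3:78877354-78877603, minus strand: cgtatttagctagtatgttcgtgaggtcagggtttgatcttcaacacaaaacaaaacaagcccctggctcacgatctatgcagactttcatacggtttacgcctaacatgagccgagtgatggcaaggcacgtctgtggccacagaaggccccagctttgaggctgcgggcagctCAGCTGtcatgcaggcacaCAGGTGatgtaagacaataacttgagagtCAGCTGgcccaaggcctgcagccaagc
Chrnd, chr9:95310066-95310315, plus strand: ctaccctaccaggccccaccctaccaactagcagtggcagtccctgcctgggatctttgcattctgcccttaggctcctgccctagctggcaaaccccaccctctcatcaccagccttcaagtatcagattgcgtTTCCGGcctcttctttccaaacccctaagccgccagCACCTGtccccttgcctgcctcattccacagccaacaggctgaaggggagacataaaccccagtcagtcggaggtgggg

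The Chrng sequence held 3 E-boxes, of which the one beginning 26 bases before the start had the letters CAGCTG, the form preferred by MyoD and myogenin. The Chrna1 sequence also held 3 E-boxes, and 2 of them, beginning 75 and 27 bases before the start, read CAGCTG. Chrnd held 1 E-box and 1 N-box, the latter beginning 115 bases before the start, and no CAGCTG. Among 33469 upstream sequences of the same length in the table, searched on both strands, 65.5% held an E-box of any form, 11.5% held at least 3, 12.0% held CAGCTG and 12.6% held the N-box. CAGCTG is itself an E-box and is counted in both figures. Upstream sequences were matched for 5 of the 6 members, all but Rapsn, and those of Chrnb1 and Musk each held 3 E-boxes with 1 CAGCTG, although 30 of the 250 bases for Chrnb1 and 176 for Musk lie within the annotated span of the gene itself. These are matches of letters and not measured binding sites.

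Among the subunits, Chrng (ENSRNOG00000019634) was read at a steady level. It had 5673, 6973 and 5829 counts in young and 6206, 5395 and 5713 counts in old replicates 1, 2 and 3. On the CPM scale this was 126, 116 and 119 in young and 125, 104 and 107 in old. Old replicate 1 lay among the young libraries, the other old libraries lay below them, and the groups overlapped. Young cultures averaged 120.1 ± 5.03 CPM and old cultures 112 ± 11.4 CPM (SD, n = 3 each), which gave a log2 fold change of -0.10 (standard error 0.10). The highest library was 1.21 times the lowest.

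In RefSeq on GRCr8, the protein-coding genes on either side of Chrng on chromosome 9 are Chrnd and Eif4e2, which encodes a cap-binding protein of the translation machinery. Neither has a row under its symbol in the table. The nearest genes on either side of Chrnb1 (Zbtb4 and Fgf11) and of Rapsn (Celf1 and Psmc3) do have rows, and of those beside Musk, Svep1 has a row and 4930522L14Rikl has none. The table pairs each Ensembl identifier with a symbol, while the study's methods name a RefSeq annotation, and the gene models behind the counts were not used here. Which transcripts supplied the reads counted under the Chrng identifier was therefore not tested, and the level of Chrng is uncertain in this respect.

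Chrnb1 (ENSRNOG00000014698), the β1 subunit, was near the lower end of detection. It had 37, 52 and 33 counts in young and 30, 21 and 42 counts in old replicates 1, 2 and 3. Young cultures averaged 0.785 ± 0.101 CPM and old cultures 0.597 ± 0.190 CPM (SD, n = 3 each), and the log2 fold change was -0.39 (standard error 0.34). Old replicate 3 lay within the young range and the groups overlapped. The coefficient of variation (CV) between replicates was 12.8% in young and 31.8% in old, where the sampling of reads alone would give 15.7% and 18.0%, or 22.2% and 25.4% if each fragment was counted by both mates.

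Chrne, the adult ε subunit, is no member but stands in the same receptor, and it also had few counts. It had 19, 51 and 22 counts in young and 8, 41 and 41 counts in old replicates 1, 2 and 3, and its log2 fold change was -0.01 (standard error 0.63, with an edgeR adjusted p = 0.996). The highest and lowest counts were 51 in young replicate 2 and 8 in old replicate 1. Of the 12 other nicotinic subunits looked for, Chrne and the neuronal β2 subunit Chrnb2 had rows and 10 had none. Chrnb2 had between 14 and 44 counts in a library, and its log2 fold change was 0.49 (standard error 0.45, with an edgeR adjusted p = 0.537).

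Of the clustering proteins, Musk (ENSRNOG00000033567), the receptor tyrosine kinase that agrin activates, showed the largest age difference of the 4 genes. It had 84, 66 and 28 counts in young and 174, 143 and 123 counts in old replicates 1, 2 and 3. Expressed as CPM these were 1.86, 1.10 and 0.570 in young and 3.50, 2.75 and 2.29 in old. Each old library lay above each young library. The mean was 1.18 ± 0.649 CPM in young and 2.85 ± 0.607 CPM in old (SD, n = 3 each), 2.42-fold higher, and the log2 fold change was 1.28 (standard error 0.45). It lay between 0.95, without young replicate 3, and 1.76, without young replicate 1, with libraries left out in turn. The replicate CV was 55.2% in young and 21.3% in old, against 13.0% and 8.26% from the sampling of reads, or 18.4% and 11.7% if each fragment was counted by both mates.

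Rapsn (ENSRNOG00000011208), the scaffold that holds receptors in clusters, separated libraries rather than ages. It had 22, 72 and 26 counts in young and 24, 88 and 92 counts in old replicates 1, 2 and 3. In CPM it was at 0.487, 1.20 and 0.529 in young and at 0.482, 1.69 and 1.72 in old. Young replicate 2 and old replicates 2 and 3 were high, the other libraries were low, and the groups overlapped. Young cultures averaged 0.738 ± 0.398 CPM and old cultures 1.30 ± 0.706 CPM (SD, n = 3 each), and the log2 fold change was 0.80 (standard error 0.60). Leaving out young replicate 2 took this to 1.35 and leaving out old replicate 3 to 0.55.

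**Figure D1:**
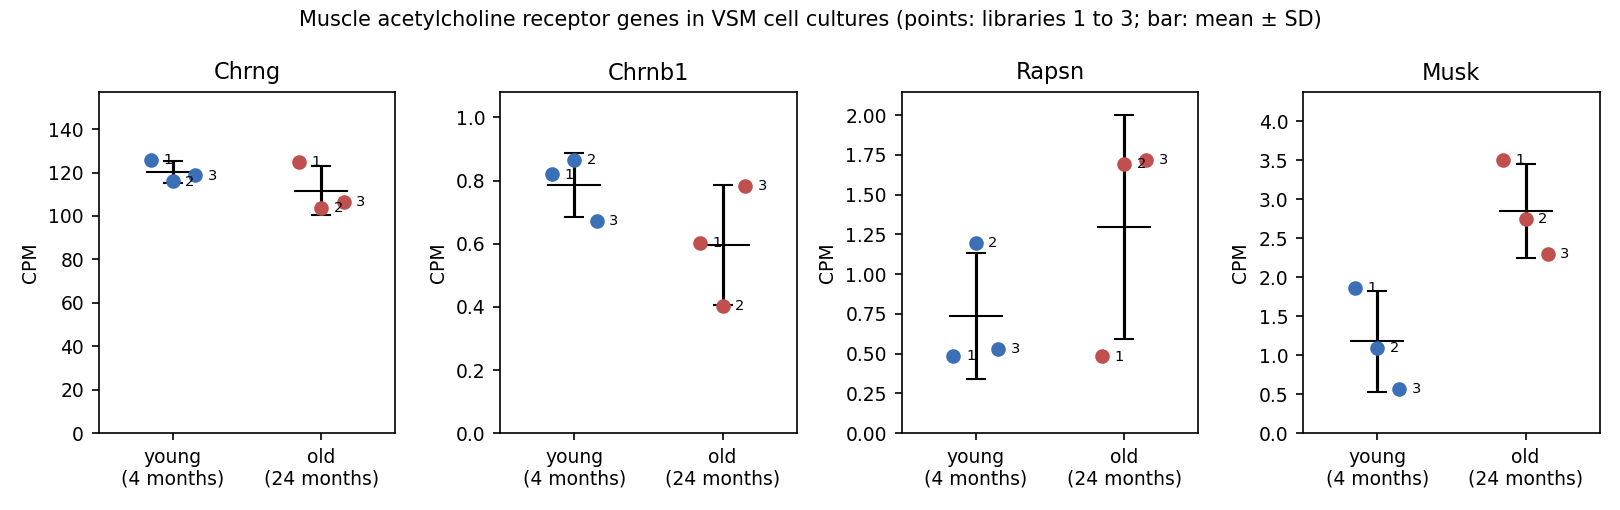
CPM of Chrng, Chrnb1, Rapsn and Musk (y axes, linear, each from 0) in young and old cultures (x axis), with a numbered point per library and the mean ± SD of 3 libraries as a bar. Groups overlap for Chrng, Chrnb1 and Rapsn, and the 3 old libraries of Musk, from 2.29 to 3.50 CPM, lie above the 3 young libraries, from 0.570 to 1.86 CPM.

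A gene was called where its adjusted p was under 0.05 and its log2 fold change was 1 or more in size. edgeR's quasi-likelihood test called 0 of these 4 genes, where it called 0.00691% of all genes. DESeq2 called 0 of the 4 (5.68% of all genes with an adjusted p) and limma-voom 0 of the 4 (0% of all genes). Musk was the 1 gene of the 4 whose groups did not overlap, which held for 29.2% of all genes (14.5% higher and 14.7% lower in old). Nothing is read from these counts, because the members were chosen with their values known.

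The 4 genes differed in how much replicates varied. For each gene, a CV pooled over both groups was set beside those of all genes with a mean CPM within 1.5-fold of its own. Chrng, at 115.9 CPM over the 6 libraries, had a pooled CV of 7.79%, and 32.0% of the 1499 genes of like level varied less. Chrnb1 had 24.3%, with 24.4% of 984 such genes below it. The clustering proteins lay in the upper part of the range, Rapsn with 54.2% (77.6% of 934 genes varied less) and Musk with 41.8% (70.8% of 999 genes varied less).

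**Figure D2:**
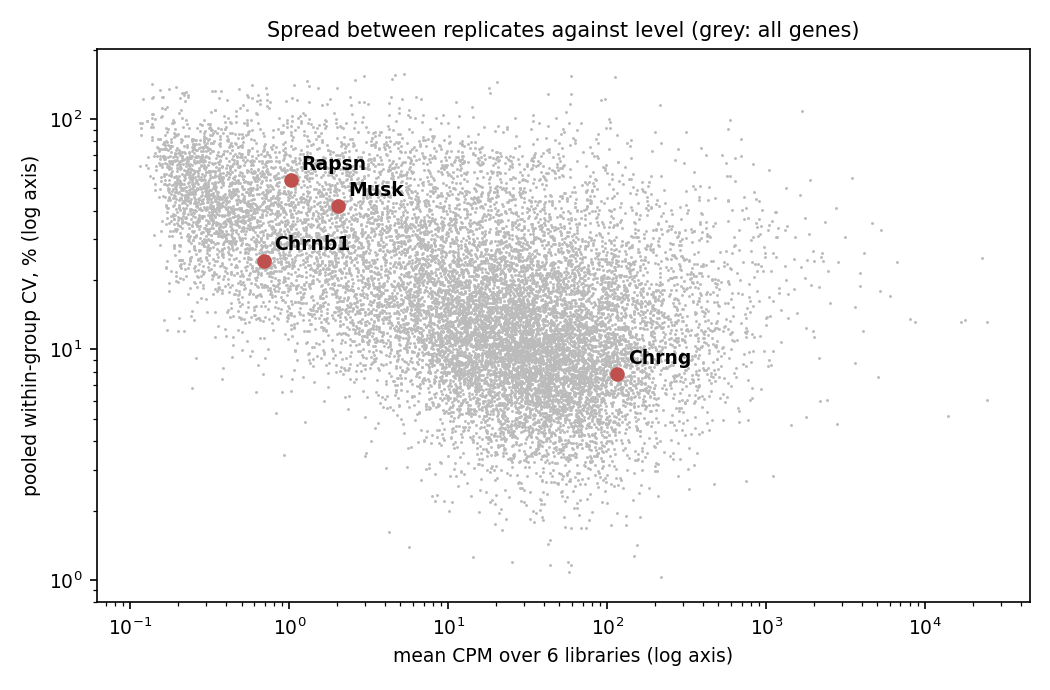
CV between replicates in percent, pooled over the young and old groups (y axis, log), against mean CPM over 6 libraries (x axis, log), with a grey point per gene of the table and the 4 receptor genes in red. Chrng lies at 115.9 CPM and 7.79%, and Chrnb1, Musk and Rapsn lie at 0.691, 2.01 and 1.02 CPM with 24.3%, 41.8% and 54.2%.

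Likeness of pattern was measured as the root mean square difference of log2 CPM over the 6 libraries, each gene centered on its own mean, among 11433 other genes with a symbol and a mean of at least 1 CPM. The nearest to Chrng were Rabggtb (0.0136), Nol9 (0.0188), Rnf6 (0.0285), Gatc (0.0286) and Ccdc25 (0.0288). Its distances to the other receptor genes were 0.314 for Chrnb1, 0.877 for Musk and 0.883 for Rapsn. Nearest to Musk were Mrc2 (0.219), Gpr146 (0.226), Dnm1 (0.263), Pde1a (0.265) and Mob3b (0.274), and its distance to Rapsn was 1.03. Rapsn was nearest to Slc37a2 (0.252), Nat8b (0.266), Plxna4 (0.267), P2ry4 (0.268) and Tmem86a (0.301). The smallest distance between any 2 of the 4 receptor genes was 0.314, that of Chrng and Chrnb1. This measure is small for any genes that vary little, so a small distance does not by itself show a shared pattern. Pooled SDs of log2 CPM within groups were 0.11 for Chrng and 0.34 for Chrnb1, beside 0.62 for Musk and 0.86 for Rapsn. Chrnb1, with a mean under 1 CPM, was not ranked.

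Genes of the pathway that leads to receptor clustering had rows in part. Of 40 genes of agrin and MuSK signaling, the synaptic matrix, the rapsyn and dystroglycan scaffold and receptor assembly, 35 had rows. Dok7, the adaptor that activates MuSK from inside the cell, and Colq, which anchors acetylcholinesterase, had none, and neither had Col13a1, Erbb3 and Erbb4. Agrn encodes the ligand, and counts per gene do not show whether the nerve form was made. It had 1855, 2774 and 2503 counts in young and 1608, 2186 and 3000 counts in old replicates 1, 2 and 3, and the groups overlapped (log2 fold change -0.08, standard error 0.21, adjusted p = 0.828 from edgeR). The agrin receptor Lrp4 had 312, 408 and 542 counts in young and 275, 334 and 341 in old, and on the CPM scale the old libraries lay below the young (log2 fold change -0.43, standard error 0.23, adjusted p = 0.305 from edgeR). Ache, the enzyme that breaks down acetylcholine, went from 3.82 ± 1.19 to 2.19 ± 0.445 CPM (SD, n = 3 each, log2 fold change -0.80, adjusted p = 0.202 from edgeR). The log2 fold changes of Agrn and Lrp4 were below 0, where that of Musk was above 0.

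Over the 35 genes the median log2 fold change was -0.10, beside 0.02 for all genes, with 11 genes higher and 24 lower in old. edgeR called 0 of them and limma-voom 0, while 10 (1 higher and 9 lower) had an unadjusted p under 0.05. This is 10 of 35 beside 22.6% of all genes (11.2% higher and 11.5% lower). DESeq2 called 2 of 35, beside 5.68% of all genes. One was Lama5, a laminin chain of basement membranes, which went from 30.3 ± 13.2 to 3.80 ± 1.04 CPM (SD, n = 3 each, log2 fold change -2.99, adjusted p = 0.0531 from edgeR and 1.92e-11 from DESeq2). The other was Fyn, a kinase of the Src family, which went from 39.4 ± 1.55 to 81.6 ± 11.0 CPM (SD, n = 3 each, log2 fold change 1.05, adjusted p = 0.0531 from edgeR and 4.55e-10 from DESeq2). Nrg1, which encodes neuregulin, had 1415, 2057 and 3366 counts in young and 988, 211 and 1087 counts in old, with old below young on the CPM scale (log2 fold change -1.60, adjusted p = 0.205 from edgeR). Dag1, the dystroglycan precursor, and Macf1, a crosslinker of the cytoskeleton, were also lower in old without overlap, with log2 fold changes of -0.66 and -0.40 (adjusted p = 0.166 and 0.160 from edgeR). The other abundant genes of the list, Hsp90b1 and Lama4, had overlapping groups and log2 fold changes of -0.29 and -0.13, and the receptor chaperone Tmem35a had 0.89 (adjusted p = 0.286 from edgeR), with old replicate 2 far above the rest at 620 counts.

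The factors that drive the receptor genes in skeletal muscle were looked for next. Of 22 myogenic regulators 12 had rows, and Myod1, Myog, Myf5, Myf6, Pax3, Pax7, Eya1, Dach2 and the fusion proteins Mymk and Mymx had none. Among the 12, edgeR, DESeq2 and limma-voom each called 0, and 3 of the 12 had an unadjusted p under 0.05 in edgeR, beside 22.6% of all genes. Tcf12, an E protein that pairs with myogenic factors, went from 47.5 ± 4.69 to 68.0 ± 6.80 CPM (SD, n = 3 each, log2 fold change 0.52, adjusted p = 0.0948 from edgeR). Id1 and Id3, inhibitors that sequester E proteins, were lower in each old library, with log2 fold changes of -0.91 and -0.64 (adjusted p = 0.0741 and 0.136 from edgeR). Id2, of the same family, had 0.16 (adjusted p = 0.871 from edgeR) with overlapping groups, and was highest in old replicate 3 at 79.4 CPM. Mef2d and Mef2c, factors that act with the myogenic bHLH proteins, had log2 fold changes of -0.14 and -0.96 (adjusted p = 0.333 and 0.279 from edgeR). Hdac9, a repressor of Mef2 factors, had 176, 306 and 217 counts in young and 227, 8 and 83 counts in old (log2 fold change -1.10, adjusted p = 0.502 from edgeR). The median of the 12 was 0.01, with 6 higher and 6 lower.

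Genes of differentiated skeletal muscle were also present in part, and the 8 that DESeq2 called were lower in old. Of 62 such genes 32 had rows, and Ckm, the muscle creatine kinase, and Myh3, the embryonic myosin heavy chain, had none. Of the 32, 8 were higher and 24 lower in old, and their median log2 fold change was -0.50. edgeR called 0 and limma-voom 0, 10 (1 higher and 9 lower) had an unadjusted p under 0.05 in edgeR (22.6% of all genes), and DESeq2 called 8 (5.68% of all genes), all lower in old. Acta1, the skeletal α-actin, had 3255, 8397 and 12555 counts in young and 871, 916 and 320 counts in old (log2 fold change -3.51, standard error 0.62, edgeR adjusted p = 0.0644). Casq2, a calcium-binding protein of the sarcoplasmic reticulum, went from 20.3 ± 11.6 to 2.29 ± 0.420 CPM and Myom1, a protein of the sarcomere's M band, from 5.77 ± 4.03 to 0.477 ± 0.194 CPM (SD, n = 3 each), with log2 fold changes of -3.15 and -3.59 (adjusted p = 0.0636 and 0.0648 from edgeR). Jph2, which ties the reticulum to the cell membrane, had -0.89 (adjusted p = 0.0948 from edgeR). Casq1 and Jph1, of the same families as Casq2 and Jph2, had -0.13 and 0.58 with overlapping groups (adjusted p = 0.858 and 0.489 from edgeR). The 1 gene higher in old at an unadjusted p under 0.05 was Tnnt3, a troponin, with 0.92 (adjusted p = 0.216 from edgeR). The fast myosin chains Myh1 and Myh2 had -3.00 and -3.11 (adjusted p = 0.152 and 0.136 from edgeR), with old replicate 3 above the other old libraries. Acta1 shares most of its coding sequence with Acta2, and Myh1 with Myh2, and reads can be divided between such copies. The difference in direction between Musk and those of these genes that were lower in old was not tested.

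**Figure D3:**
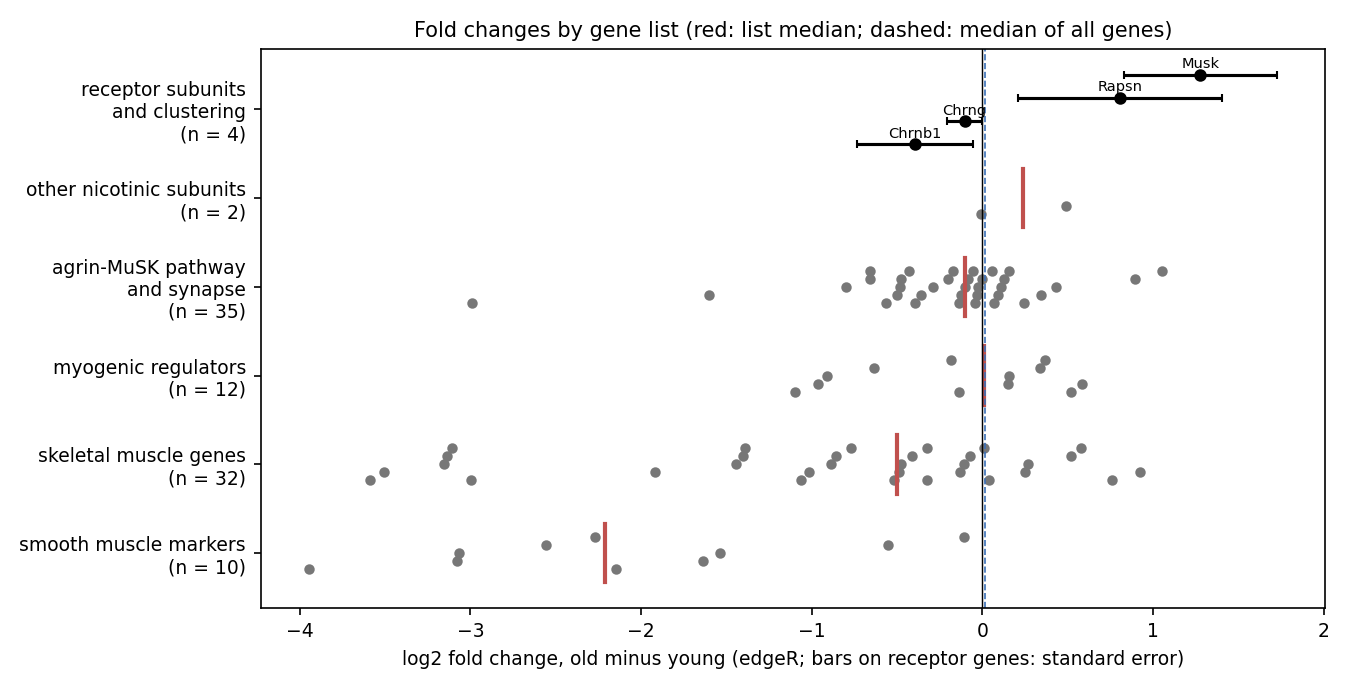
Log2 fold change of old over young from edgeR (x axis) for the genes of each list that had a row (y axis), with the standard error for the 4 receptor genes, red bars at the medians of the other lists and a dashed line at the median of all genes, 0.02. The receptor genes lie between -0.39 and 1.28, and the lists of skeletal muscle genes and smooth muscle markers have medians of -0.50 and -2.21.

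Over the 81 genes of these 4 lists together, edgeR called 0 with all libraries and 7 of them without old replicate 1. Over all 14475 genes it called 1 and 732 in these settings. The 7 were Lama5, Fyn, Acta1, Jph2, Xirp1, Id1 and Tnnt3. In this fit Fyn and Tnnt3 were higher in old, with log2 fold changes of 1.16 and 1.23, and the others were lower. Without young replicate 1 it called Casq2, where it called 5 genes over the whole table. With a filter of at least 1 CPM in 3 libraries it called Lama5 and Fyn, where it called 65 over the whole table. These genes were named after their values had been seen. DESeq2 called 10 of the 81, beside 5.68% of all genes with an adjusted p.

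Summed markers did not overlap between the ages for smooth muscle, skeletal muscle and fibroblasts, and overlapped for the other cell types looked for. All 10 smooth muscle markers had rows and log2 fold changes below 0 (median -2.21), although Des, at -0.11 (standard error 0.76), had overlapping groups. Of the 10, edgeR called 0 and DESeq2 8, beside 5.68% of all genes for DESeq2. Their summed level was 11326 to 21576 CPM in young and 3479 to 5608 CPM in old, mostly Acta2 and Tagln. The 32 skeletal muscle genes summed to 482 to 701 CPM in young and 205 to 232 CPM in old, without overlap. In young this was mostly Jph2, Acta1 and Myh1 (means of 210, 156 and 95.2 CPM), and in old mostly Jph2 (114 CPM). The sums thus follow few genes of the list and are no measure of a skeletal muscle cell type. The 8 fibroblast markers all had rows, 7 of them higher in old. Of the 8, edgeR called 0 and DESeq2 1, beside 5.68% of all genes for DESeq2. The 8 markers summed to 28316 to 38440 CPM in young and 50468 to 57465 CPM in old. Nearly all of this sum was Col1a1 and Col1a2, and Lum, Dpt, Pi16 and Gsn overlapped between the groups. The paper describes collagen family members as raised with aging in its account of VSM cells. The sum therefore does not separate fibroblasts from VSM cells. Of 8 Schwann cell markers 4 had rows and 3 were higher in old, with sums of 13.7 to 75.7 CPM in young and 55.1 to 86.6 CPM in old that were mostly S100b, whereas the defining marker Sox10 had no row. Of 10 satellite cell markers 6 had rows, with sums of 377 to 442 CPM in young and 393 to 847 CPM in old that were mostly Ncam1, and Pax7 and Myf5 had none. Of 7 neuron markers 2 had rows, with sums of at most 3.52 CPM, and Chat, the enzyme that makes acetylcholine, had none. Endothelial markers (6 of 9 with rows) summed to 29.2 to 44.1 CPM over all libraries, mostly Egfl7 and Tek. Pecam1, Kdr and Vwf each averaged under 1 CPM, and Cdh5 had no row. Macrophage markers (2 of 7) summed to at most 2.90 CPM and cardiac markers (2 of 6) to at most 0.835 CPM.

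The summed fibroblast markers were higher and the summed smooth and skeletal muscle genes lower in each old library than in each young one, and the Musk groups were apart as well. Within the groups the order of the fibroblast sum, mostly Col1a1 and Col1a2, differed from that of Musk. Young replicate 3 had the lowest Musk and the highest young fibroblast sum, and old replicate 1 the highest Musk and the lowest old fibroblast sum. Pdgfra, Lum, Pi16 and the Schwann cell sum fell from young replicate 1 through 2 to 3, as Musk did, while Dcn, Dpt and Gsn did not. In old, these markers and the Schwann cell sum did not have the order of Musk. The neuron sum, at most 3.52 CPM, had the order of Musk in both groups. Satellite cell and macrophage sums had it in young alone, skeletal muscle, endothelial and cardiac sums in old alone, and the smooth muscle sum in neither. Such orders of 3 libraries are given as a description. The part of these cell types in the Musk difference was not tested. In these bulk libraries, fewer cells of a type and less RNA per cell cannot be told apart.

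**Figure D4:**
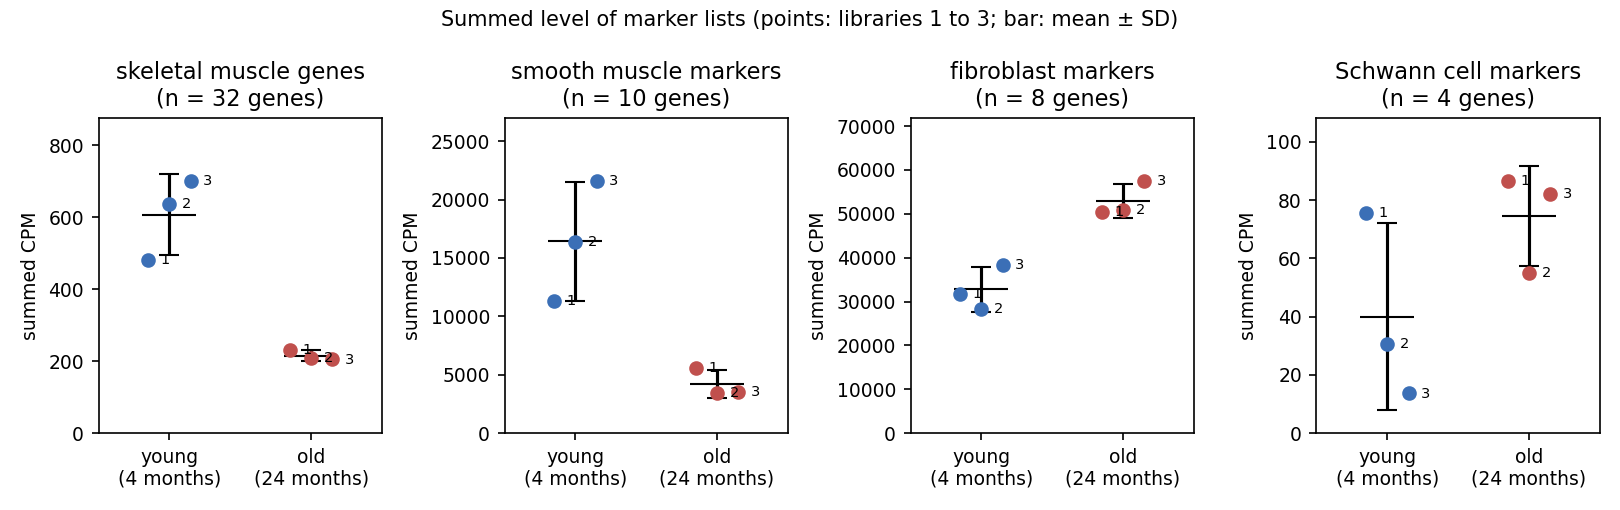
Summed CPM (y axes, linear, each from 0) of the skeletal muscle, smooth muscle, fibroblast and Schwann cell lists in young and old cultures (x axis), with a numbered point per library and the mean ± SD of 3 libraries. Skeletal muscle genes (482 to 701 against 205 to 232 CPM) and smooth muscle markers are higher in each young library, fibroblast markers are higher in each old library, and Schwann cell markers overlap.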

How the data were processed

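Reads were processed by the authors, who trimmed them with Cutadapt 3.5 through Trim Galore 0.6.7, aligned them to the rat assembly Rnor 6.0 with STAR 2.7.10b and counted them per gene with featureCounts (Subread 2.0.8). The paper names a RefSeq annotation for this step, whereas the table carries Ensembl identifiers, so the gene models counted are uncertain. The deposited values are raw counts for 14475 genes in 6 libraries, without normalization. The libraries were stranded per the labels; how featureCounts handled strand, mates and reads with several matches is not stated by the paper, labels or file. Totals ranged from 44235674 to 59700887 counts. Groups came from the sample titles. The p-values measure the spread between these libraries, which the labels do not tie to animals.

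The table was fitted whole in R 4.3.3 with edgeR 4.0.16 (TMM, quasi-likelihood F test, Benjamini-Hochberg adjustment over all genes, age alone, young as reference). Each standard error was derived from the size of the log2 fold change and its F statistic (their ratio, with the root of F). Alternatives were DESeq2 1.42.0, which left 292 genes without an adjusted p, and limma 3.58.1 with voom. Log2 CPM used a prior count of 2. Steps were tested on simulated counts with 200 of 14475 genes changed by 2 on the log2 scale, of which edgeR recovered 70.5% to 75.5%.

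The members and gene lists were chosen with earlier results of these data known. List genes were matched by symbol, 1 of them (Mylpf, as Myl11) by synonym. Named were the 6 members, per list the 4 genes of highest mean CPM, the 4 of largest absolute log2 fold change among those of at least 1 CPM, any gene called by edgeR, and defining genes such as Agrn and Myod1. Some genes that this rule names are not reported here. Promoter sequences were from RefSeq (GRCr8), a build other than that of the counts, and no coordinates were converted. Libraries within a group were not duplicates (chi-square per gene of at least 67.1, where sampling noise gives about 1).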

Additional observations from a re-analysis of the deposited data

How the results depend on the processing

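With each of the alternatives run, the log2 fold changes of Chrng (-0.19 to -0.06), Chrnb1 (-0.64 to -0.18), Rapsn (0.55 to 1.35) and Musk (0.95 to 1.76) kept their sign and moved by less than 1 SD between replicates. Chrnb1 did not pass the filter of at least 1 CPM in 3 libraries, and neither did Chrne and Chrnb2. The number of genes called over the whole table was 1 in edgeR, 65 with that filter, 805 in DESeq2 and 0 in limma-voom, and lay between 0 and 732 with libraries left out, highest without old replicate 1. Over the 4 fixed lists it was 0 in edgeR, 2 with the filter, 10 in DESeq2 and between 0 and 7 with libraries left out. Median log2 fold changes with libraries left out lay between -0.13 and -0.029 for the pathway list, between -0.19 and 0.13 for myogenic regulators and between -0.72 and -0.35 for skeletal muscle genes, whose median was -0.77 with the filter, where fewer genes entered. The median of the myogenic regulators changed sign in 7 of 13 alternatives and has no stable direction. That of the other nicotinic subunits lay between -0.07 and 0.62. RLE scaling, library size alone and halved counts, the last chosen after seeing the data, changed no count of calls beyond 1.5 times. The replicate number as a block gave 1 called gene and 0 in the lists. Deviations of same-numbered young and old libraries correlated at 0.06, 0.32 and 0.31, and young replicate 1 correlated best with old replicate 2 (0.35). With 3 libraries per group, these values do not settle whether the numbers pair the libraries. The cause of these changes was not tested. Counts under 100 limit Chrnb1, Rapsn and the young libraries of Musk, and a gene without a row under its symbol is not shown to be without RNA.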
